A study of Mus musculus with 9 samples.

Results

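Cadherins are membrane proteins that bind their counterparts on neighbouring cells in the presence of calcium. The genes described here are the 44 of 38720 rows of a mouse thymic epithelial read count table whose symbols are Cdh, Pcdh or Dsg followed by a number, or Dsc followed by a single digit. The clustered Pcdha, Pcdhb and Pcdhg genes were not included. The 44 comprised 5 classical type I cadherins, 13 classical type II cadherins, 5 other cadherins, 9 desmosomal cadherins and 12 protocadherins.

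The RNA came from thymic epithelial cells (TEC) sorted as CD45- EpCAM+ MHCII+ cells, with Ly51+ UEA1- cells taken as cortical (cTEC) and Ly51- UEA1+ cells as medullary (mTEC). One set carried a BAC transgene for FLAG-tagged Foxn1, written wt*, on the nude background, whose own Foxn1 is not functional. Its groups were heterozygous (wt*/-::nu/nu) mTEC with 2 libraries, homozygous (wt*/wt*::nu/nu) mTEC with 2, heterozygous cTEC with 3 and homozygous cTEC with 3. In the other set all mice were homozygous for beta5t-rtTA and for Foxn1 fl/fl and had received doxycycline 72 h earlier. The 5 deleted cTEC libraries came from mice heterozygous for tetO-Cre, which removes the floxed part of Foxn1 (del7,8), and the 5 control cTEC libraries from mice without tetO-Cre. Beta5t is made by cTEC, so the deletion is directed at that lineage, and every TEC of the transgenic set depends on the transgene. Nothing in the labels says whether libraries of a group came from separate mice, so p-values measure the spread between libraries, which may be technical. Chromatin samples of the same study were not used here.

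Classical cadherins sit in adherens junctions, where their cytoplasmic tails bind catenins that connect to actin. Desmosomal cadherins, the desmogleins (Dsg) and desmocollins (Dsc), join cells through plakoglobin, plakophilins and desmoplakin to keratin filaments. Protocadherins are a large related group, best known from the nervous system, with weaker adhesion and other cytoplasmic tails. Foxn1 is the transcription factor on which differentiation of thymic epithelium depends, and the thymic cortex is an open meshwork of epithelial cells while the medulla is more compact and displays many genes of peripheral tissues.

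Library totals lay between 20719630 and 22372633 counts. Foxn1 reads reached 488 and 502 CPM (counts scaled by library total) in heterozygous mTEC, 307 and 329 CPM in homozygous mTEC, 1144, 1209 and 1144 CPM in heterozygous cTEC and 1484, 1299 and 1311 CPM in homozygous cTEC. In the deletion set Foxn1 reads were 362, 538, 361, 407 and 500.1 CPM in deleted cTEC, against 407, 515, 351, 416 and 579 CPM in control cTEC. That log2 fold change was -0.09 ± 0.16 (adjusted p = 0.783), but reads over the whole gene include exons outside the deleted part and so do not check the deletion. As sums, the markers of the sorted cells followed the labels, while some single cTEC markers did not. Summed CPM of the 8 cTEC markers was 707 to 759.8 in heterozygous mTEC, 1252 to 1463 in homozygous mTEC, 2283 to 2652 in heterozygous cTEC, 16707 to 18765 in homozygous cTEC, 2817 to 3270.2 in deleted cTEC and 6489.9 to 23620.1 in control cTEC. Summed CPM of the 9 mTEC markers was 5788 to 5934 in heterozygous mTEC, 6589.8 to 7299 in homozygous mTEC, 751 to 932 in heterozygous cTEC, 183 to 206 in homozygous cTEC, 435 to 1728 in deleted cTEC and 512 to 1678 in control cTEC. The cTEC marker Psmb11 averaged 0.319 CPM in deleted and 0.92 CPM in control cTEC, below its 4.34 CPM in heterozygous and 21.3 CPM in homozygous mTEC. Psmb11 encodes beta5t, and all mice of the deletion set were homozygous for beta5t-rtTA. A link between that genotype and the low Psmb11 level was not tested. In heterozygous cTEC Ccl25 averaged 6.04 CPM and Tbata 108 CPM, below their 96.3 and 144 CPM in homozygous mTEC. In deleted cTEC Ccl25 averaged 84.2 CPM and Tbata 78.9 CPM, also below homozygous mTEC. None of these 17 markers was at 0 throughout a group.

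A mean of at least 1 CPM was reached in each of the 6 groups by 16 of the 44 genes, namely Cdh1, Cdh2, Cdh3, Cdh4, Cdh11, Cdh24, Dsc2, Dsc3, Dsg2, Dsg4, Pcdh1, Pcdh7, Pcdh15, Pcdh17, Pcdh18 and Pcdh19. Cdh10, Cdh12, Cdh18, Cdh19, Cdh20 and Pcdh11x stayed under 1 CPM on average in all 6 groups, with between 0 and 26 counts in a library. Across the 4 transgenic groups the highest mean lay in an mTEC group for 33 genes and in a cTEC group for 11. Because transcript lengths were not used here, levels are compared between libraries and never between genes.

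**Figure D1:**
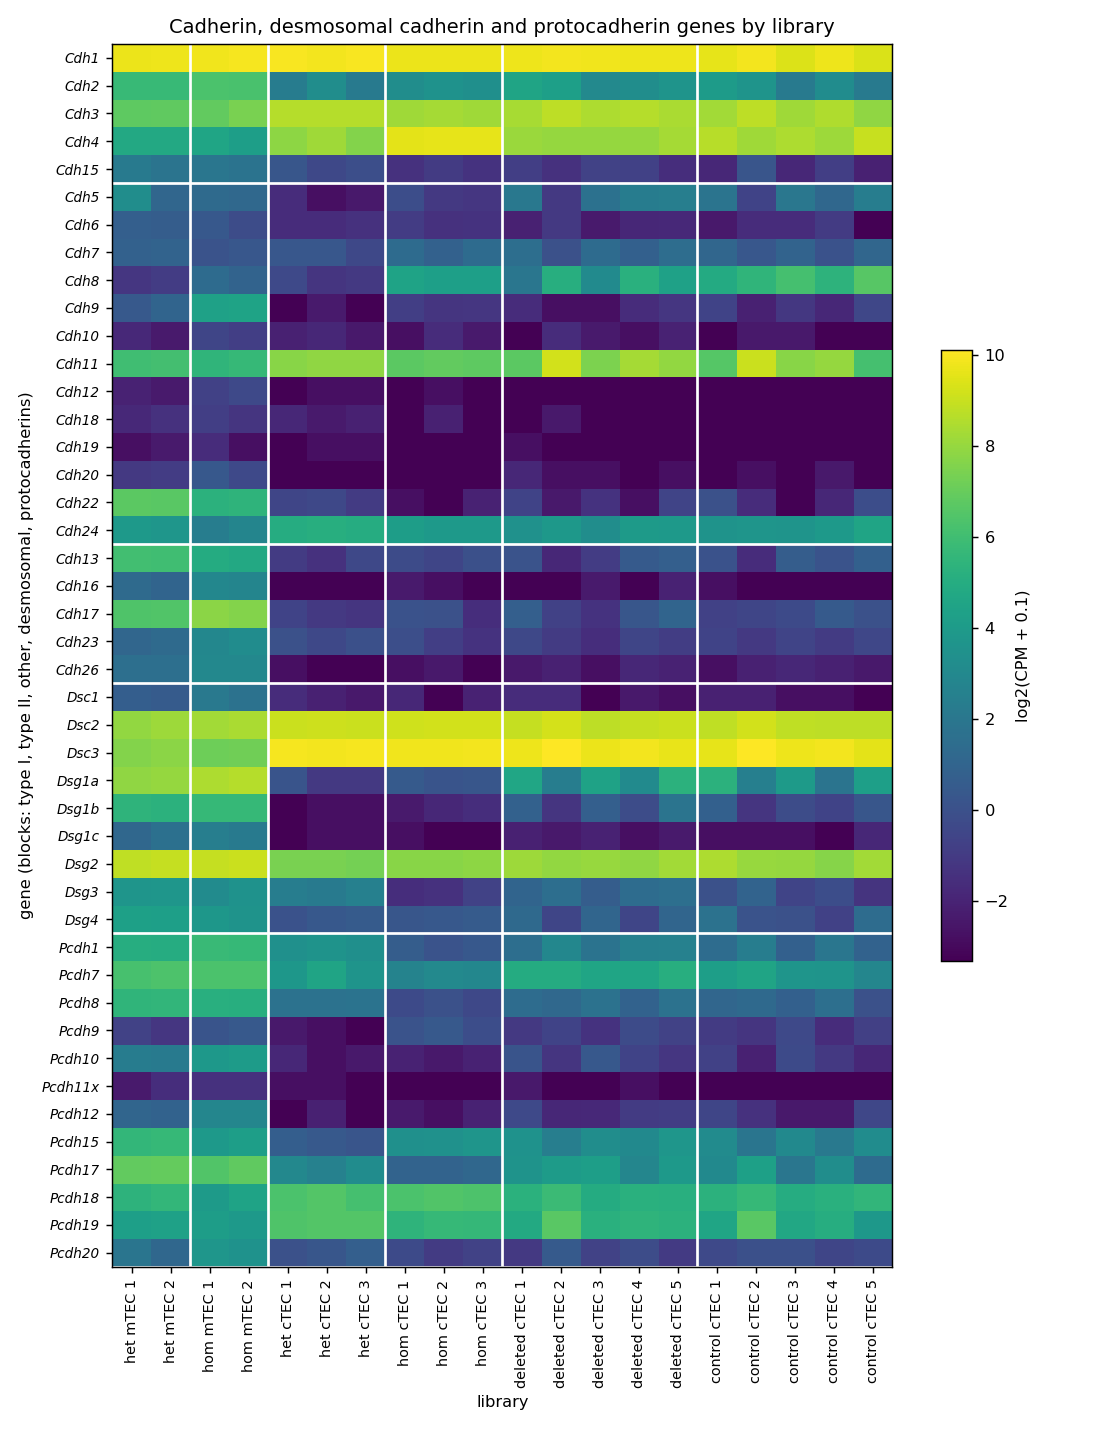
Heat map of log2(CPM + 0.1) for the 44 genes (rows, blocks from top to bottom: classical type I, classical type II, other cadherins, desmosomal cadherins, protocadherins) in the 20 libraries (columns, het heterozygous, hom homozygous). Cdh1 is bright in every column, Cdh3, Dsc2 and Dsc3 are brighter in cTEC than in mTEC, and most other rows are brighter in the 4 mTEC columns.

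RefSeq (GRCm38.p6) lists promoter windows for 22 of the 44 genes that could be shown here, 25 windows in all, each with 250 bases before and 50 after a transcript start. Transcript starts in this table need not be the outermost start of a gene. The windows of 4 genes are shown because Cdh8, Pcdh15 and Pcdh9 were among the genes most lowered in heterozygous cTEC and Pcdh17 holds a motif match beside its start: Cdh8 (chr8:99416422-99416721, minus strand), Pcdh15 (chr10:73821617-73821916, plus strand), Pcdh9 (chr14:93890630-93890929, minus strand) and Pcdh17 (chr14:84443313-84443612, plus strand). Capitals mark GACGC or its reverse complement GCGTC, a core that has been described for FOXN1 binding.
Cdh8: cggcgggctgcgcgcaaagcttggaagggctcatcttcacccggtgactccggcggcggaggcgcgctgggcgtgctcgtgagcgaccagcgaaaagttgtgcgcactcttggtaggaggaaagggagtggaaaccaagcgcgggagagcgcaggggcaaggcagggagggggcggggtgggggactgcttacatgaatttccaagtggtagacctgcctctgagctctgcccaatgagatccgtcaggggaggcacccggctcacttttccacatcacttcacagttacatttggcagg
Pcdh15: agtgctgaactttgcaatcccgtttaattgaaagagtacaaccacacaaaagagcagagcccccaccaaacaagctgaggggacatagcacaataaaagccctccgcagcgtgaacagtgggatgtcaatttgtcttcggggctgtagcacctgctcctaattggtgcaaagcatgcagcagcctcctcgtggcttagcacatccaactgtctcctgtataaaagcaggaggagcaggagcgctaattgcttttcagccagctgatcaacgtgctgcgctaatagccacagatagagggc
Pcdh9: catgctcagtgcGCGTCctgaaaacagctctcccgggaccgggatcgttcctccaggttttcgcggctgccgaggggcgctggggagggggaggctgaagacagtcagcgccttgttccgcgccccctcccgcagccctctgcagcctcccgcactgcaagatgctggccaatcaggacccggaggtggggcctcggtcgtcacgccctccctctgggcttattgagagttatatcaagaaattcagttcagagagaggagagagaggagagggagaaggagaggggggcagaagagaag
Pcdh17: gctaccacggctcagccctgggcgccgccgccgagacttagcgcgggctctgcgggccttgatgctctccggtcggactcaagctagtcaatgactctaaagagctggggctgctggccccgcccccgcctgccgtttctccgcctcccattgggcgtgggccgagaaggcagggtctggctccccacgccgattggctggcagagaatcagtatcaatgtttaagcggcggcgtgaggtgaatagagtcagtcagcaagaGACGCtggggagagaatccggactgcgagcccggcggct
GACGC or GCGTC, searched on both strands with overlaps allowed, occurred in 5 of the 25 windows (20.0%), which belonged to Cdh7, Cdh18, Pcdh9 and Pcdh17. The Pcdh9 windows overlap and hold the same match, which is counted in each. Of all 32851 RefSeq windows, 8932 (27.2%) held GACGC or GCGTC. In Pcdh17 the match began 12 bases into the transcript, and in the Pcdh9 window shown it began at position -238, counted back from the start. The window of Cdh8 was 62.3% G or C and that of Pcdh15 50.7%, beside a median of 52.7% over all windows. These matches are descriptions of letters and do not show binding.

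The first comparison asked how cadherin genes differ between medullary and cortical epithelium at each transgene dose. In homozygous mice 28 of the 40 genes tested were higher in mTEC and 10 lower, at an adjusted p under 0.05 in edgeR's quasi-likelihood test. Over all 19222 genes tested, 43.2% were higher and 39.4% lower. In heterozygous mice 29 of 40 were higher and 9 lower, while over all genes 40.4% were higher and 31.6% lower. Over the 40 genes the log2 fold change had a median of 3.47 in homozygous mice and 2.74 in heterozygous mice, against 0.04 and 0.09 over all genes. When genes with 0 to 3 counts in a group took their bound or observed ratio instead, those medians were 3.47 and 2.75. In both genotypes the same 27 genes were higher in mTEC and the same 8 were lower. The 8 lower were Cdh3, Cdh4, Cdh11, Cdh24, Dsc2, Dsc3, Pcdh18 and Pcdh19. Genes that passed the filter on low counts through their mTEC level alone had to differ, so these counts describe the 40 and are not support for the group as a whole. Cdh10, Cdh18, Cdh19 and Pcdh11x did not pass the filter, with 0 to 13 counts in any of the 10 transgenic libraries. In 39 of the 40 genes the CPM of the subsets did not overlap in homozygous mice, and likewise in 39 in heterozygous mice, beside 85.5% and 81.6% of all genes. In sorted bulk samples, a change in the share of a cell type and a change of RNA per cell cannot be told apart.

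Among the classical type I cadherins, Cdh1 (E-cadherin, the main adherens junction cadherin of epithelia) showed small differences between subsets. Its levels were 844 and 869.6 CPM in heterozygous mTEC, 895 and 973 in homozygous mTEC, 1022, 928 and 1000.0 in heterozygous cTEC and 839, 853 and 838 in homozygous cTEC. The log2 fold change of mTEC over cTEC was -0.10 ± 0.07 (adjusted p = 0.21) in homozygous mice, and it became 0.15 without normalization factors, 0.086 with RLE factors and 0.081 in DESeq2. In heterozygous mice it was -0.29 ± 0.07 (adjusted p = 0.00228). Cdh3 (P-cadherin, found in basal layers of stratified epithelia) was lower in mTEC in both genotypes. It had 110.4 and 114 CPM in heterozygous mTEC, 119 and 168 in homozygous mTEC, 399, 388 and 398 in heterozygous cTEC and 298, 310.5 and 293 in homozygous cTEC, so that no mTEC library reached a cTEC library. Its log2 fold change was -1.31 ± 0.11 (adjusted p = 9.08e-08) in homozygous and -1.90 ± 0.11 (adjusted p = 4.32e-09) in heterozygous mice. Cdh4 (R-cadherin, known from retina and other neural tissue) had the largest deficit in mTEC among the genes tested in homozygous mice. It measured 27.9 and 27.4 CPM in heterozygous mTEC, 23.4 and 18.1 in homozygous mTEC, 231, 296 and 195 in heterozygous cTEC and 756, 792 and 786 in homozygous cTEC. The log2 fold changes were -5.47 ± 0.18 (adjusted p = 5.33e-12) and, in heterozygous mice, -3.20 ± 0.16 (adjusted p = 6.76e-10). Cdh2 (N-cadherin, a cadherin of neural and mesenchymal cells) went the other way. It was at 53.2 and 52.6 CPM in heterozygous mTEC, 78.2 and 75.6 in homozygous mTEC, 4.89, 9.45 and 4.5 in heterozygous cTEC and 9.63, 11.3 and 10.4 in homozygous cTEC, with log2 fold changes of 2.64 ± 0.18 (adjusted p = 1.01e-08) in homozygous and 2.99 ± 0.19 (adjusted p = 9.41e-09) in heterozygous mice. Cdh15 (M-cadherin of skeletal muscle) had 92 and 73 counts in heterozygous mTEC, 82 and 72 in homozygous mTEC, 24, 14 and 18 in heterozygous cTEC and 6, 9 and 6 in homozygous cTEC and was higher in mTEC by 3.19 ± 0.29 in homozygous and 2.09 ± 0.24 in heterozygous mice.

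**Figure D2:**
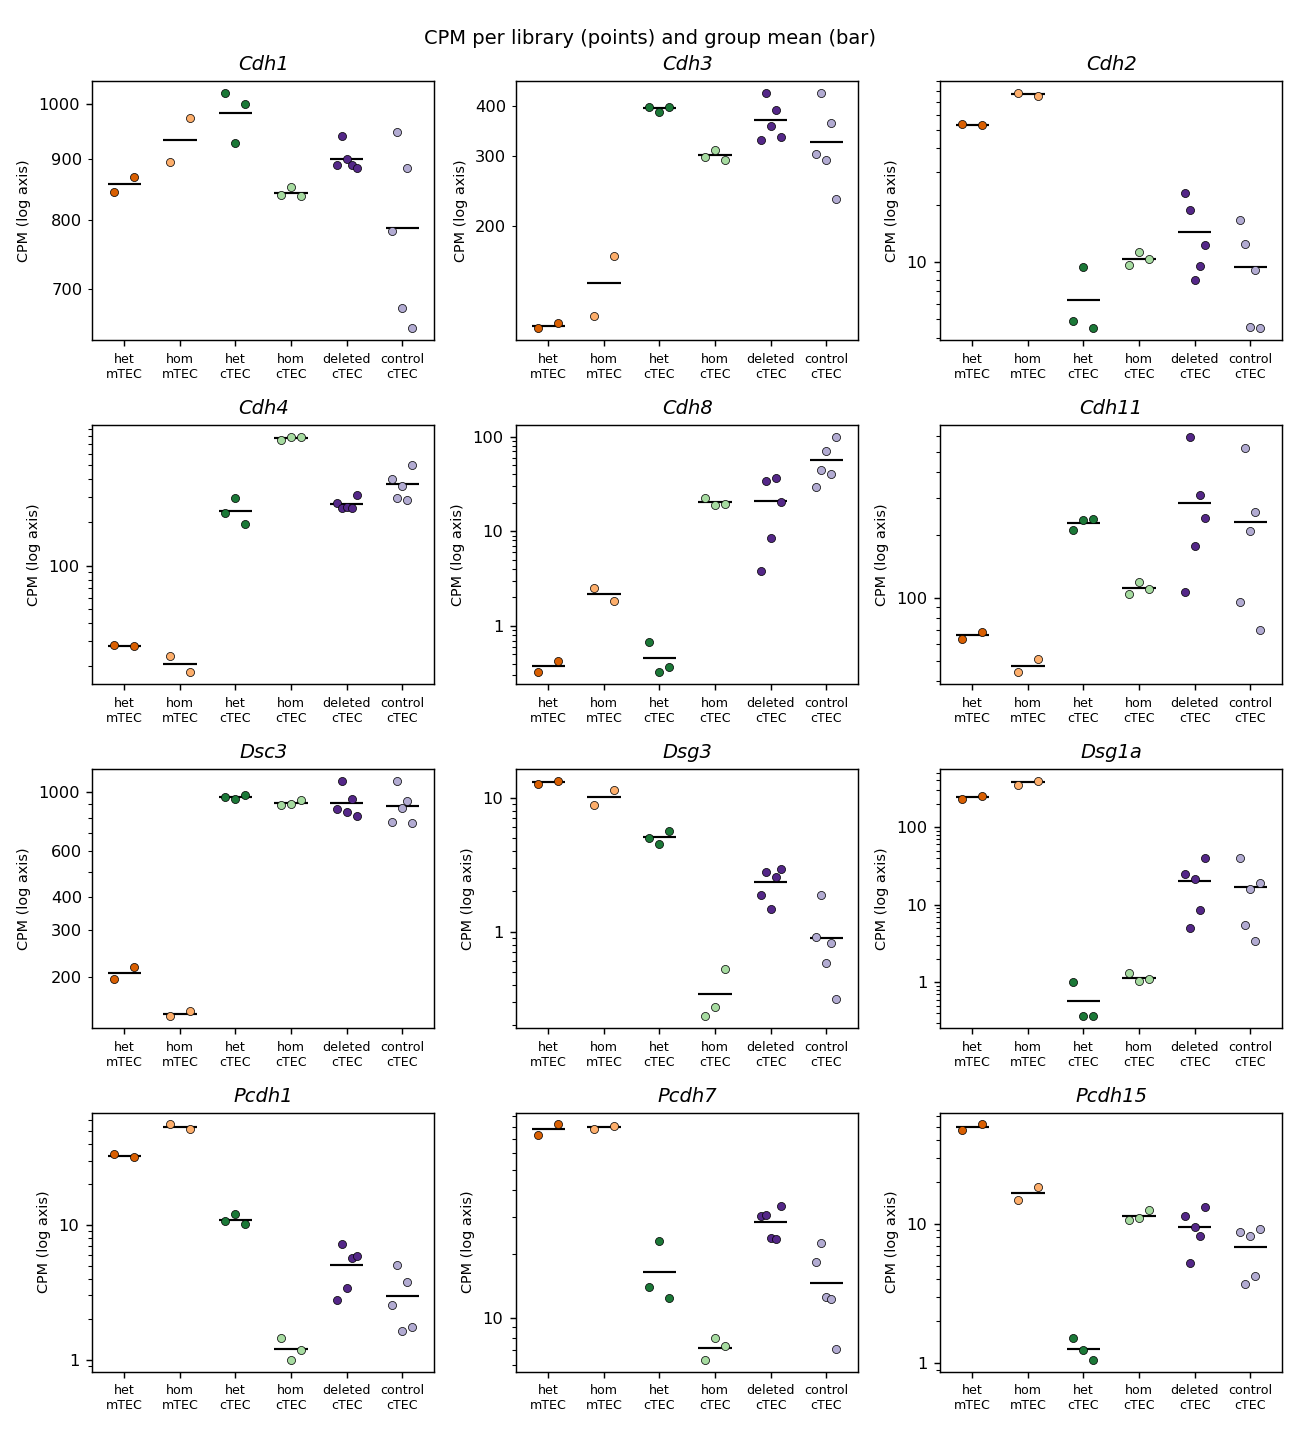
CPM per library (points, log axis, a separate range in each panel) and group mean (bar) for 12 cadherin genes in the 6 groups, with het for heterozygous and hom for homozygous. Cdh4 is highest in homozygous cTEC, Cdh8 is near 0 CPM in heterozygous cTEC, and Dsg1a is highest in the mTEC groups.

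Of the 10 type II cadherins tested, 6 were higher and 4 lower in mTEC of homozygous mice, and 6 and 2 in heterozygous mice. Over all genes the shares were 43.2% and 39.4% in homozygous and 40.4% and 31.6% in heterozygous mice. Cdh11 (OB-cadherin, typical of mesenchyme and osteoblasts) was among the lower ones, at 63.3 and 68.9 CPM in heterozygous mTEC, 44 and 50.7 in homozygous mTEC, 211, 237 and 239.5 in heterozygous cTEC and 105, 119 and 111 in homozygous cTEC. Log2 fold changes were -1.48 ± 0.08 (adjusted p = 1.64e-09) in homozygous and -1.88 ± 0.08 (adjusted p = 2.34e-10) in heterozygous mice, and the subsets did not overlap in either. Cdh24 was lower in mTEC at -1.67 ± 0.13 in homozygous and -1.32 ± 0.12 in heterozygous mice on the log2 scale. Cdh8, a type II cadherin known from neurons, had 7 and 9 counts in heterozygous mTEC, 54 and 40 in homozygous mTEC, 15, 7 and 8 in heterozygous cTEC and 479, 422 and 407 in homozygous cTEC. Its mTEC over cTEC difference was -3.46 ± 0.19 (adjusted p = 1.02e-09) in homozygous mice and -0.37 ± 0.44 (adjusted p = 0.464) in heterozygous mice, where no library of either subset held more than 15 counts. Cdh7 turned its sign, with 36 and 39 counts in heterozygous mTEC, 21 and 25 in homozygous mTEC, 25, 25 and 14 in heterozygous cTEC and 53, 37 and 52 in homozygous cTEC and log2 fold changes of -1.29 ± 0.28 (adjusted p = 8.47e-04) in homozygous and 0.76 ± 0.29 (adjusted p = 0.0311) in heterozygous mice.

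Cdh22, known from brain, was a medullary gene here. It had 2277 and 2177 counts in heterozygous mTEC, 865 and 922 in homozygous mTEC, 13, 14 and 9 in heterozygous cTEC and 1, 0 and 3 in homozygous cTEC. The log2 fold change of mTEC over cTEC was 9.02 ± 0.22 (adjusted p = 5.15e-13) in homozygous mice, the largest of the 40, and 7.47 ± 0.15 (adjusted p = 2.00e-13) in heterozygous mice. Cdh9 had 27 and 41 counts in heterozygous mTEC, 444 and 483 in homozygous mTEC, 0, 2 and 0 in heterozygous cTEC and 10, 7 and 7 in homozygous cTEC, with a log2 fold change of 5.59 ± 0.25 (adjusted p = 1.22e-10) in homozygous mice. In heterozygous mice its ratio of depth-scaled summed counts, mTEC over cTEC, was 52.3 (95% interval 13.9 to 441). Cdh5 (VE-cadherin, the endothelial adherens junction cadherin) had 205 and 44 counts in heterozygous mTEC, 51 and 48 in homozygous mTEC, 5, 1 and 2 in heterozygous cTEC and 17, 8 and 7 in homozygous cTEC, so that 1 heterozygous mTEC library stood far above the other 3 mTEC libraries. Log2 fold changes came to 1.95 ± 0.66 (adjusted p = 0.0145) in homozygous and 5.43 ± 0.74 (adjusted p = 1.85e-05) in heterozygous mice. Summed CPM of the 8 endothelial markers was 50.2 and 27.1 in heterozygous mTEC, 50.6 and 42.5 in homozygous mTEC, 3.43 to 4.39 in heterozygous cTEC and 4.53 to 5.7 in homozygous cTEC, with none of them at 0 throughout a group. Of the 7 endothelial markers tested, 5 were higher in mTEC in homozygous and 7 in heterozygous mice. Their part in the Cdh5 values was not tested. Cdh6 was higher in mTEC by 1.35 ± 0.34 in homozygous and 2.51 ± 0.33 in heterozygous mice, at 33 and 31 counts in heterozygous mTEC, 26 and 17 in homozygous mTEC, and at most 9 in a transgenic cTEC library. Cdh20 had 8 and 9 counts in heterozygous mTEC and 26 and 15 in homozygous mTEC and none in the 6 transgenic cTEC libraries. Against a floor of 3 counts over the cTEC group it was at least 20.4-fold higher in homozygous and at least 8.72-fold higher in heterozygous mTEC. Cdh12 had 3 and 2 counts in heterozygous mTEC, 11 and 15 in homozygous mTEC, 0, 1 and 1 in heterozygous cTEC and 0, 1 and 0 in homozygous cTEC, and its mTEC over cTEC ratio was 38.8 (95% interval 6.38 to 1591) in homozygous and 3.85 (95% interval 0.63 to 40.4) in heterozygous mice.

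All 5 of the other cadherins were higher in mTEC in both genotypes, beside 43.2% of all genes in homozygous and 40.4% in heterozygous mice. Cdh16 and Cdh26, with 0 to 3 summed counts in a transgenic cTEC group, passed the filter through mTEC alone and had to differ. Cdh17 (LI-cadherin of the intestine) had 84.4 and 88.7 CPM in heterozygous mTEC, 223 and 196 in homozygous mTEC, 0.548, 0.371 and 0.321 in heterozygous cTEC and 0.935, 0.907 and 0.238 in homozygous cTEC, a log2 fold change of 7.98 ± 0.18 (adjusted p = 2.13e-13) in homozygous and 7.60 ± 0.20 (adjusted p = 1.31e-12) in heterozygous mice. Cdh17 was thus below 1 CPM in each transgenic cTEC library. Cdh13 (T-cadherin, anchored by a lipid and without a cytoplasmic tail) had 66.3 and 63.2 CPM in heterozygous mTEC, 30.4 and 27.5 in homozygous mTEC, 0.411, 0.278 and 0.642 in heterozygous cTEC and 0.748, 0.589 and 0.856 in homozygous cTEC. It was higher by 5.06 ± 0.16 (adjusted p = 4.03e-12) in homozygous and 7.08 ± 0.16 (adjusted p = 4.72e-13) in heterozygous mice. Cdh16 (Ksp-cadherin of the kidney) had 51 and 40 counts in heterozygous mTEC, 156 and 147 in homozygous mTEC, 0, 0 and 0 in heterozygous cTEC and 2, 1 and 0 in homozygous cTEC. Its summed counts gave an mTEC over cTEC ratio of 151 (95% interval 51.1 to 735) in homozygous mice, and in heterozygous mice it was at least 46.7-fold higher in mTEC. No transgenic cTEC library held more than 2 Cdh16 counts. Cdh26 had 61 and 62 counts in heterozygous mTEC, 164 and 165 in homozygous mTEC, 1, 0 and 0 in heterozygous cTEC and 1, 2 and 0 in homozygous cTEC, with ratios of 164 (95% interval 55.5 to 798) in homozygous and 189 (95% interval 33.3 to 7533) in heterozygous mice. Cdh23, which with Pcdh15 forms the tip links of inner ear hair cells, had 44 and 50 counts in heterozygous mTEC, 161 and 198 in homozygous mTEC, 20, 14 and 19 in heterozygous cTEC and 18, 10 and 6 in homozygous cTEC and was higher by 3.72 ± 0.27 (adjusted p = 2.19e-08) in homozygous and 1.36 ± 0.30 (adjusted p = 0.0012) in heterozygous mice. Cdh23 overlaps the protein-coding genes Vsir and Gm17455, and its counts are uncertain because the strand setting is not given in the sources used here. The same holds for Cdh12, Cdh18, Pcdh11x and Pcdh12, the other members that overlap a protein-coding gene, and 24 of the 44 overlap some other annotated gene.

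The 9 desmosomal cadherins lie next to each other on chromosome 18, in the order Dsc3, Dsc2, Dsc1, Dsg1c, Dsg1a, Dsg1b, Dsg4, Dsg3 and Dsg2, over 644 kb that hold no other protein-coding gene in RefSeq. Along this cluster the neighbours Dsc3 and Dsc2 at its start were lower in mTEC in both genotypes, and the other 7 were higher. Over all genes 43.2% were higher and 39.4% lower in homozygous mice, and 40.4% and 31.6% in heterozygous mice. Dsc3 (a desmocollin of basal epidermis) had 196 and 218 CPM in heterozygous mTEC, 142 and 148 in homozygous mTEC, 961, 946 and 974 in heterozygous cTEC and 895, 904 and 939 in homozygous cTEC. The mTEC over cTEC change was -2.90 ± 0.07 (adjusted p = 5.50e-13) in homozygous and -2.30 ± 0.07 (adjusted p = 5.96e-12) in heterozygous mice. Dsc2, the desmocollin found in most tissues with desmosomes, had 244 and 279 CPM in heterozygous mTEC, 309 and 340.3 in homozygous mTEC, 522, 552 and 535 in heterozygous cTEC and 557, 577 and 587 in homozygous cTEC. It was lower at -1.06 ± 0.07 (adjusted p = 8.80e-09) in homozygous and -1.12 ± 0.07 (adjusted p = 9.15e-09) in heterozygous mice, with no overlap between subsets. Dsg2, the widespread desmoglein at the other end of the cluster, had 452 and 481 CPM in heterozygous mTEC, 492 and 531 in homozygous mTEC, 171, 171 and 158 in heterozygous cTEC and 212, 212 and 228 in homozygous cTEC. The mTEC over cTEC difference was 0.99 ± 0.07 (adjusted p = 7.41e-09) in homozygous and 1.40 ± 0.07 (adjusted p = 3.83e-10) in heterozygous mice.

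Dsg1a, Dsg1b and Dsg1c are closely related copies that may share reads, so the split between them is uncertain, although each was higher in mTEC. The product is best known from the upper epidermis. Dsg1a had 233 and 253 CPM in heterozygous mTEC, 354 and 399 in homozygous mTEC, 1.01, 0.371 and 0.367 in heterozygous cTEC and 1.31, 1.04 and 1.09 in homozygous cTEC. This gave log2 fold changes of 8.11 ± 0.15 (adjusted p = 6.40e-14) in homozygous and 8.60 ± 0.16 (adjusted p = 1.46e-13) in heterozygous mice. Dsg1b had 906 and 849 counts in heterozygous mTEC, 1089 and 1119 in homozygous mTEC, 0, 1 and 1 in heterozygous cTEC and 2, 4 and 5 in homozygous cTEC, with 7.94 ± 0.18 (adjusted p = 2.15e-13) in homozygous mice and a ratio of summed counts of 1349.8 (95% interval 373 to 11154) in heterozygous mice. Dsg1c had 46 and 65 counts in heterozygous mTEC, 115 and 97 in homozygous mTEC, 0, 1 and 1 in heterozygous cTEC and 1, 0 and 0 in homozygous cTEC, giving ratios of 316 (95% interval 56.2 to 12556) in homozygous and 85.4 (95% interval 23.1 to 714) in heterozygous mice. Dsg3 (the pemphigus antigen of basal epidermis and oral mucosa) had 12.7 and 13.5 CPM in heterozygous mTEC, 8.84 and 11.3 in homozygous mTEC, 5.03, 4.5 and 5.64 in heterozygous cTEC and 0.234, 0.272 and 0.523 in homozygous cTEC. It was higher in mTEC by 4.62 ± 0.25 (adjusted p = 8.92e-10) in homozygous mice and by 1.28 ± 0.16 (adjusted p = 8.68e-06) in heterozygous mice. Dsg4, known from hair, had 19.7 and 19.4 CPM in heterozygous mTEC, 13.8 and 11.9 in homozygous mTEC, 0.959, 1.21 and 1.33 in heterozygous cTEC and 1.12, 1.18 and 1.33 in homozygous cTEC and was higher by 3.16 ± 0.16 in homozygous and 3.98 ± 0.15 in heterozygous mice. Dsc1, of the upper epidermis, had 32 and 29 counts in heterozygous mTEC, 91 and 69 in homozygous mTEC, 5, 3 and 2 in heterozygous cTEC and 4, 0 and 3 in homozygous cTEC and was higher by 4.78 ± 0.43 in homozygous and 3.10 ± 0.47 in heterozygous mice. Summed CPM of 6 markers of cornified keratinocytes was 22.9 to 25.2 in heterozygous mTEC, 78.7 to 87.2 in homozygous mTEC, 26.4 to 28.8 in heterozygous cTEC and 16.6 to 18.1 in homozygous cTEC, and its relation to the desmogleins was not tested.

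**Figure D3:**
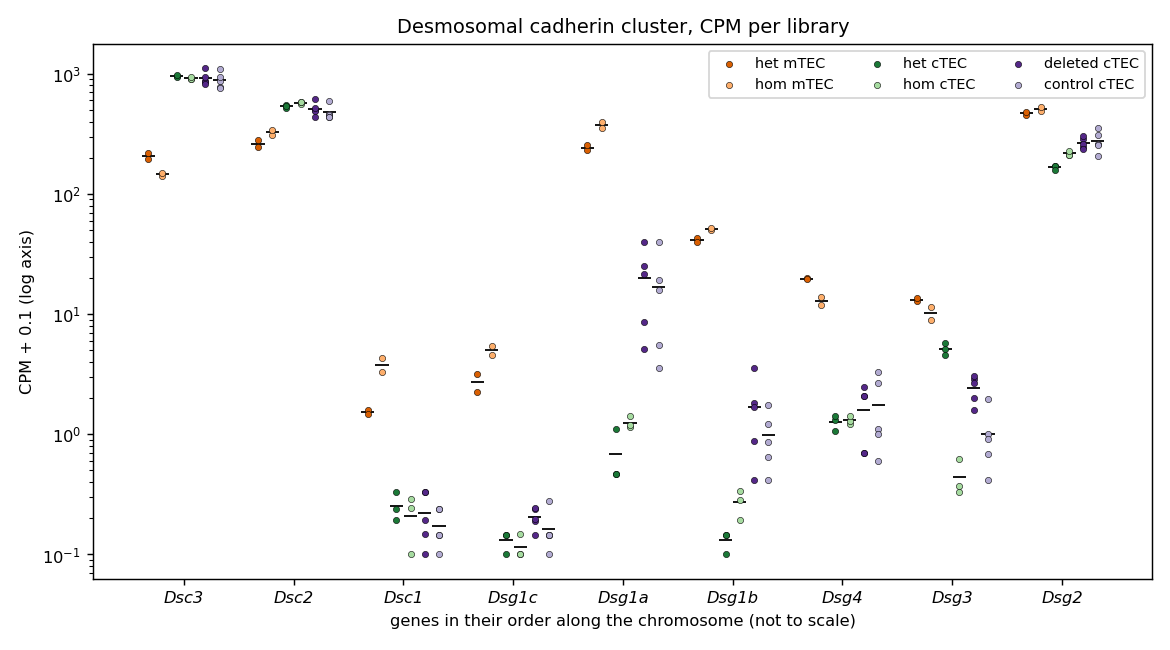
CPM + 0.1 per library (points, log axis) and group mean (bar) of the 9 desmosomal cadherins in their order along chromosome 18, with het for heterozygous and hom for homozygous. From Dsc1 to Dsg2 the mTEC points lie above the transgenic cTEC points, while at Dsc3 and Dsc2 they lie below.

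Of the 11 protocadherins tested, 8 were higher and 2 lower in mTEC of homozygous mice, and 9 and 2 in heterozygous mice. Over all genes the shares were 43.2% and 39.4% in homozygous and 40.4% and 31.6% in heterozygous mice. Many are δ-protocadherins first studied in developing brain. Pcdh1, which is also made by airway epithelium, had 33.4 and 31.9 CPM in heterozygous mTEC, 55.8 and 51.4 in homozygous mTEC, 10.8, 12.1 and 10.1 in heterozygous cTEC and 1.45, 0.997 and 1.19 in homozygous cTEC. Its log2 fold change of mTEC over cTEC was 5.22 ± 0.13 (adjusted p = 4.82e-13) in homozygous and 1.49 ± 0.10 (adjusted p = 1.42e-08) in heterozygous mice. Pcdh8 had 43.5 and 46.6 CPM in heterozygous mTEC, 35.9 and 34.6 in homozygous mTEC, 3.24, 3.2 and 3.4 in heterozygous cTEC and 0.701, 0.907 and 0.666 in homozygous cTEC, with 5.28 ± 0.13 in homozygous and 3.69 ± 0.10 in heterozygous mice. Pcdh17 had 119 and 125 CPM in heterozygous mTEC, 89.7 and 114 in homozygous mTEC, 7.58, 5.98 and 9.18 in heterozygous cTEC and 1.82, 1.86 and 2.14 in homozygous cTEC, with 5.46 ± 0.16 in homozygous and 3.92 ± 0.13 in heterozygous mice. For all 3, each mTEC library lay above every transgenic cTEC library. Pcdh10 had 4.9 and 4.39 CPM in heterozygous mTEC, 14.2 and 16.3 in homozygous mTEC, 0.183, 0.0463 and 0.0918 in heterozygous cTEC and 0.14, 0.0907 and 0.143 in homozygous cTEC and was higher by 6.64 ± 0.26 (adjusted p = 3.10e-11) in homozygous and 5.28 ± 0.31 (adjusted p = 3.53e-09) in heterozygous mice. Pcdh12, an endothelial protocadherin, had 42 and 38 counts in heterozygous mTEC, 152 and 155 in homozygous mTEC, 0, 3 and 0 in heterozygous cTEC and 2, 1 and 3 in homozygous cTEC, a log2 fold change of 5.93 ± 0.38 (adjusted p = 5.87e-09) in homozygous mice and a ratio of 41 (95% interval 13.5 to 203) in heterozygous mice. Pcdh7 had 73.1 and 82 CPM in heterozygous mTEC, 78.3 and 80.3 in homozygous mTEC, 14, 22.9 and 12.4 in heterozygous cTEC and 6.31, 8.02 and 7.32 in homozygous cTEC and was higher by 3.21 ± 0.19 in homozygous and 2.15 ± 0.17 in heterozygous mice. Pcdh20 was higher by 4.25 ± 0.27 in homozygous and 1.18 ± 0.28 in heterozygous mice. Against this majority stood a pair that was lower in mTEC. It was Pcdh18, at 40.8 and 48.4 CPM in heterozygous mTEC, 16.1 and 22.5 in homozygous mTEC, 80.2, 93 and 71.8 in heterozygous cTEC and 78.7, 88.5 and 82.1 in homozygous cTEC, and Pcdh19, the gene of a human female-limited epilepsy, at 19.1 and 20.4 CPM in heterozygous mTEC, 17.8 and 15.5 in homozygous mTEC, 86.3, 90.8 and 90.7 in heterozygous cTEC and 42.9, 50.7 and 48.6 in homozygous cTEC. Pcdh18 changed by -2.35 ± 0.14 in homozygous and -0.96 ± 0.13 in heterozygous mice, and Pcdh19 by -1.75 ± 0.09 in homozygous and -2.26 ± 0.09 in heterozygous mice. The 2 remaining protocadherins were Pcdh15 and Pcdh9. Pcdh15 had 47.2 and 51.9 CPM in heterozygous mTEC, 15 and 18.5 in homozygous mTEC, 1.51, 1.25 and 1.06 in heterozygous cTEC and 10.7, 11.1 and 12.7 in homozygous cTEC. Its subset difference was 0.30 ± 0.12 (adjusted p = 0.0343) in homozygous mice and 5.19 ± 0.15 (adjusted p = 3.47e-12) in heterozygous mice. Pcdh9 had 11 and 7 counts in heterozygous mTEC, 22 and 27 in homozygous mTEC, 2, 1 and 0 in heterozygous cTEC and 21, 28 and 17 in homozygous cTEC, with -0.09 ± 0.32 (adjusted p = 0.792) in homozygous mice and a ratio of 9.23 (95% interval 2.69 to 48.9) in heterozygous mice.

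Markers of other cell types differed between the subsets as well. Summed CPM of 6 macrophage and dendritic cell markers was 105 to 108 in heterozygous mTEC, 523 to 618 in homozygous mTEC, 6.7 to 8.34 in heterozygous cTEC and 3.47 to 5.7 in homozygous cTEC. All 6 were higher in mTEC in homozygous mice and 5 in heterozygous mice. Summed CPM of 10 fibroblast and mesenchyme markers was 542 to 624 in heterozygous mTEC, 522 to 557 in homozygous mTEC, 235 to 261 in heterozygous cTEC and 62.1 to 65.8 in homozygous cTEC. Singly these 10 were mixed, with 8 higher and 1 lower in mTEC of homozygous mice and 6 higher and 3 lower in heterozygous mice. In heterozygous mice Vim averaged 398 CPM in mTEC and 16.3 CPM in cTEC, while Dcn averaged 58.9 CPM in mTEC and 153 CPM in cTEC. None of these markers was at 0 throughout a group, and their part in the cadherin differences was not tested.

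Leaving out a library ended few calls between the subsets. Pcdh15 lost its call without homozygous cTEC 1 or 2 or homozygous mTEC 2, with a log2 fold change of 0.13 to 0.28. Without homozygous cTEC 2 or 3 or homozygous mTEC 1 or 2, Cdh5 stood at 1.74 to 1.99 and was not called. Cdh7 lost its call without heterozygous cTEC 3 or heterozygous mTEC 1 or 2, with a log2 fold change of 0.60 to 0.89. Without heterozygous mTEC 1 or 2, Cdh1 stood at -0.22 to -0.19 and was not called.

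The second comparison asked how transgene dose, heterozygous against homozygous, relates to cadherin RNA in each subset. Foxn1 RNA followed the number of transgene copies in cTEC, where it was lower in heterozygous mice at -0.36 ± 0.06 (adjusted p = 4.45e-04), but not in mTEC, where it was higher in heterozygous mice at 0.66 ± 0.08 (adjusted p = 1.68e-05). Dose below therefore means the genotype in the labels, and the counts do not separate transgene reads from those of the endogenous gene. In cTEC 12 of the 40 genes tested were higher and 12 lower in heterozygous than in homozygous mice, and the other 16 were not called. Over all 19222 genes 20.9% were higher and 21.9% lower. In mTEC 12 were higher, 20 lower and 8 not called, beside 28.9% higher and 30.8% lower over all genes. The doses did not overlap for 26 of the 40 genes in cTEC and for 37 in mTEC, beside 54.7% and 80.1% of all genes. Over the 40 genes the median change was -0.17 in cTEC and -0.20 in mTEC, against 0.00 and 0.01 over all genes. Without normalization factors the median of all genes moves by 0.11 in the cTEC dose comparison, 0.24 in the homozygous subset comparison and -0.16 in the interaction, and under 0.1 in the others.

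By family, the 11 protocadherins tested split into 6 higher and 2 lower in heterozygous cTEC, beside 20.9% and 21.9% of all genes. The 9 desmosomal cadherins split into 1 higher and 4 lower, the 10 type II cadherins into 3 and 3, and the 5 type I cadherins into 2 and 2. Of the 5 other cadherins, 1 was lower. In heterozygous mTEC, 4 of the 5 other cadherins were lower and 1 higher, and the desmosomal cadherins split into 2 higher and 5 lower. The protocadherins split into 4 higher and 5 lower, type II into 4 and 4, and type I into 1 and 2. Over all genes 28.9% were higher and 30.8% lower in heterozygous mTEC.

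Cdh8 showed the largest dose difference in cTEC. It had 15, 7 and 8 counts in heterozygous cTEC, against 479, 422 and 407 counts in homozygous cTEC, a log2 fold change of -5.58 ± 0.21 (adjusted p = 3.24e-10). In mTEC it had 7 and 9 counts in heterozygous and 54 and 40 counts in homozygous mice, a log2 fold change of -2.49 ± 0.35 (adjusted p = 5.88e-05). Heterozygous libraries were thus low in both subsets. Pcdh9 had 2, 1 and 0 counts in heterozygous cTEC, against 21, 28 and 17 counts in homozygous cTEC. The ratio of homozygous over heterozygous summed counts was 22.3 (95% interval 7.29 to 111), and the edgeR test had an adjusted p of 1.59e-05. For Cdh9 the same ratio was 12.1 (95% interval 3.02 to 106), from 2 and 24 summed counts in heterozygous and homozygous cTEC. In mTEC Cdh9 changed by -3.71 ± 0.23 (adjusted p = 7.49e-08) and Pcdh9 by -1.38 ± 0.41 (adjusted p = 0.0115).

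Cdh4 was lower in heterozygous cTEC, with no overlap between the doses and a log2 fold change of -1.83 ± 0.12 (adjusted p = 6.44e-08). In mTEC it was slightly higher in heterozygous mice, by 0.44 ± 0.17 (adjusted p = 0.0408). Pcdh15 had the same pair of opposite signs. It was at 1.51, 1.25 and 1.06 CPM in heterozygous cTEC, against 10.7, 11.1 and 12.7 CPM in homozygous cTEC, a log2 fold change of -3.30 ± 0.16 (adjusted p = 3.22e-09). In mTEC it was at 47.2 and 51.9 CPM in heterozygous and 15 and 18.5 CPM in homozygous mice, a log2 fold change of 1.59 ± 0.13 (adjusted p = 6.00e-07). Cdh13 moved by -0.84 ± 0.30 (adjusted p = 0.0364) in cTEC and by 1.18 ± 0.11 (adjusted p = 2.61e-06) in mTEC. Opposite signs of the reverse kind, higher in heterozygous cTEC and lower in heterozygous mTEC, were called for Pcdh1, Pcdh20 and Cdh3. Pcdh1 changed by 3.04 ± 0.14 (adjusted p = 2.13e-09) in cTEC, with at least 10.1 CPM in each heterozygous and at most 1.45 CPM in each homozygous library, and by -0.69 ± 0.10 (adjusted p = 8.06e-05) in mTEC. Pcdh20 changed by 1.02 ± 0.35 (adjusted p = 0.031) in cTEC and by -2.05 ± 0.24 (adjusted p = 1.43e-05) in mTEC, where it had 78 and 46 counts in heterozygous and 285 and 247 counts in homozygous mice. Cdh3 changed by 0.26 ± 0.09 (adjusted p = 0.0386) in cTEC and -0.33 ± 0.12 (adjusted p = 0.0256) in mTEC. Some of these calls with opposite signs ended when 1 library was left out, as given below.

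Dsg3 rose most among the desmosomal cadherins of cTEC. It had 110, 97 and 123 counts in heterozygous cTEC, against 5, 6 and 11 counts in homozygous cTEC, a log2 fold change of 3.73 ± 0.25 (adjusted p = 8.22e-08). In mTEC its change was 0.40 ± 0.17 (adjusted p = 0.058). Its neighbours in the cluster moved less or the other way in cTEC. Dsg2 changed by -0.52 ± 0.06 (adjusted p = 1.22e-05), Dsg1a by -1.11 ± 0.33 (adjusted p = 0.0143) and Dsc2 by -0.23 ± 0.06 (adjusted p = 0.00802), but without normalization factors Dsc2 was at -0.097 (adjusted p = 0.23) and not called. Dsc3 was at -0.06 ± 0.06 with an adjusted p of 0.429, and at 0.073 without normalization factors. Dsg4 was at -0.19 ± 0.20 (adjusted p = 0.544). Dsg1b had 2 summed counts in heterozygous and 11 in homozygous cTEC, a ratio of homozygous over heterozygous of 5.57 (95% interval 1.21 to 51.7). Dsc1 and Dsg1c had at most 5 counts in a transgenic cTEC library and were not called. In mTEC Dsc3 and Dsg4 were higher in heterozygous mice, by 0.54 ± 0.07 (adjusted p = 4.00e-05) and 0.63 ± 0.13 (adjusted p = 0.00100). Dsc1, Dsg1c, Dsg1a, Dsc2 and Dsg1b were lower in heterozygous mTEC, with log2 fold changes of -1.34, -0.88, -0.61, -0.29 and -0.28, while Dsg2 was at -0.11 ± 0.07 (adjusted p = 0.212).

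Several genes moved in 1 direction in both subsets. Cdh11, Cdh22, Cdh24, Pcdh8 and Pcdh19 were higher in heterozygous mice in both, and Cdh2, Cdh8, Cdh9, Dsc2, Dsg1a, Dsg1b and Pcdh9 were lower in both. Some of these calls ended when 1 library was left out, as given below. Cdh11 changed by 0.90 ± 0.07 (adjusted p = 2.67e-07) in cTEC and 0.50 ± 0.09 (adjusted p = 3.88e-04) in mTEC. Cdh24 changed by 0.89 ± 0.10 (adjusted p = 8.65e-06) in cTEC and 1.25 ± 0.14 (adjusted p = 1.20e-05) in mTEC, and Pcdh19 by 0.78 ± 0.07 (adjusted p = 1.25e-06) in cTEC and 0.27 ± 0.10 (adjusted p = 0.0336) in mTEC. Pcdh8 changed by 1.97 ± 0.16 (adjusted p = 3.88e-07) in cTEC and by 0.38 ± 0.09 (adjusted p = 0.00311) in mTEC. Cdh22 changed by 2.92 ± 0.52 (adjusted p = 5.06e-04) in cTEC, where no library held more than 14 counts, and by 1.37 ± 0.10 (adjusted p = 4.39e-07) in mTEC. Cdh2 changed by -0.87 ± 0.20 (adjusted p = 0.00301) in cTEC, where the doses did not overlap, and by -0.52 ± 0.18 (adjusted p = 0.0253) in mTEC. Cdh1 was called in neither subset, at 0.09 ± 0.06 (adjusted p = 0.282) in cTEC and -0.10 ± 0.08 (adjusted p = 0.266) in mTEC. Cdh6 was not called in either, at -0.53 ± 0.41 in cTEC and 0.62 ± 0.29 in mTEC.

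Pcdh17, Pcdh7 and Cdh15 were higher in heterozygous cTEC, by 1.83 ± 0.19 (adjusted p = 4.06e-06), 1.05 ± 0.19 (adjusted p = 5.35e-04) and 1.25 ± 0.34 (adjusted p = 0.00935), and were not called in mTEC. Cdh7 was lower in heterozygous cTEC at -1.30 ± 0.25 (adjusted p = 9.94e-04) and was not called in mTEC, where it stood at 0.75 ± 0.32. Genes called lower by dose in mTEC but not called in cTEC were Cdh12, Cdh16, Cdh17, Cdh20, Cdh23, Cdh26, Dsc1, Dsg1c, Pcdh10 and Pcdh12, and none of these averaged 1 CPM in a transgenic cTEC group. Their log2 fold changes in mTEC ran from -2.27 for Cdh12 to -0.88 for Dsg1c. Cdh17 was among them, at -1.25 ± 0.12 (adjusted p = 3.12e-06), and Pcdh10 was at -1.69 ± 0.17 (adjusted p = 3.96e-06). Pcdh12 was at -1.89 ± 0.26 (adjusted p = 5.55e-05), Cdh23 at -1.88 ± 0.25 (adjusted p = 3.56e-05), Cdh16 at -1.68 ± 0.24 (adjusted p = 1.21e-04) and Cdh26 at -1.37 ± 0.22 (adjusted p = 1.57e-04). Pcdh18 was higher in heterozygous mTEC by 1.23 ± 0.15 (adjusted p = 1.96e-05), and in cTEC it was at -0.16 ± 0.11 (adjusted p = 0.274). Cdh5 was called higher in heterozygous mTEC, at 1.38 ± 0.51 (adjusted p = 0.0339), but without heterozygous mTEC 1 the value was -0.12. It was at -2.10 ± 1.08 (adjusted p = 0.141) in cTEC.

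**Figure D4:**
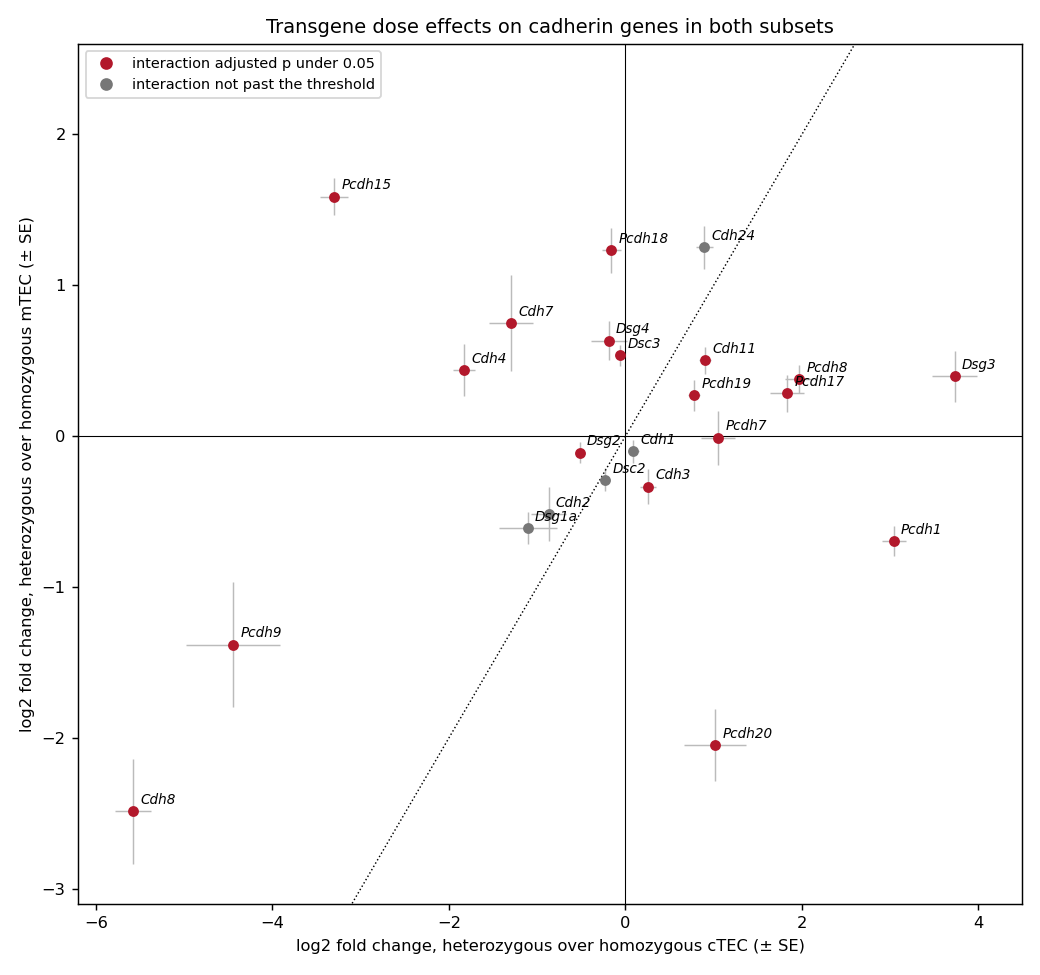
Log2 fold change of heterozygous over homozygous libraries in cTEC (x axis) and in mTEC (y axis), with standard errors, for the 23 genes with a mean of at least 1 CPM in a cTEC dose group. Genes off the dotted line of equal change had unequal estimates of the dose effect, which alone does not make a called difference. The 18 red genes passed the interaction test, among them Pcdh15 at the upper left and Pcdh1 and Pcdh20 at the lower right.

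Whether a dose effect differed between the subsets was tested as an interaction, the dose change in mTEC minus that in cTEC. For Foxn1 itself, which ran against the genotype in mTEC, it was 1.02 ± 0.10 (adjusted p = 5.55e-06). Of the 40 genes 12 had a positive and 12 a negative interaction past the threshold, while over all genes 25.2% were positive and 17.2% negative. The median over the 40 was -0.20, against 0.05 over all genes. The largest positive value belonged to Pcdh15, at 4.89 ± 0.20 (adjusted p = 4.60e-09). Cdh5 followed at 3.48 ± 1.18 (adjusted p = 0.0304), Cdh8 at 3.09 ± 0.54 (adjusted p = 5.01e-04) and Pcdh9 at 3.06 ± 0.78 (adjusted p = 0.00633), the last resting on 3 summed counts in heterozygous cTEC. Cdh4 had 2.27 ± 0.21 (adjusted p = 3.02e-06). Dsg1b had 2.12 ± 0.70 (adjusted p = 0.035), resting on 2 summed counts in heterozygous cTEC. The largest negative values belonged to Pcdh1, at -3.74 ± 0.17 (adjusted p = 1.22e-08), Dsg3, at -3.34 ± 0.32 (adjusted p = 4.37e-06), Pcdh20, at -3.06 ± 0.42 (adjusted p = 7.72e-05), and Cdh23, at -2.37 ± 0.44 (adjusted p = 7.53e-04). All 6 genes that were called in opposite directions in the subsets, Cdh3, Cdh4, Cdh13, Pcdh1, Pcdh15 and Pcdh20, also passed this test. That is not separate support, because the interaction is the difference between the same dose changes in the same fit. Dsc3 and Dsg2 had positive interactions of 0.60 and 0.41, and Cdh3 and Cdh11 negative ones of -0.59 and -0.40. Cdh1 was at -0.19 ± 0.10 (adjusted p = 0.139), Cdh2 at 0.36 ± 0.27 (adjusted p = 0.318) and Dsc2 at -0.06 ± 0.10 (adjusted p = 0.676).

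Markers of other cells differed between the doses too. In cTEC all 8 cTEC markers were lower in heterozygous mice, and of the 9 mTEC markers 5 were higher and 3 lower. The summed CPM of the mTEC markers was 751 to 932 in heterozygous and 183 to 206 in homozygous cTEC. Of 10 fibroblast markers 4 were higher and 2 lower, with summed CPM of 235 to 261 in heterozygous and 62.1 to 65.8 in homozygous cTEC. All 9 thymocyte markers were lower, with summed CPM of 10.5 to 17.2 in heterozygous and 58.7 to 96.2 in homozygous cTEC. In mTEC the macrophage and dendritic cell markers summed to 105 to 108 CPM in heterozygous and 523 to 618 CPM in homozygous mice, and 5 of 6 were lower. All 6 keratinocyte markers were lower in heterozygous mTEC, with summed CPM of 22.9 to 25.2 in heterozygous and 78.7 to 87.2 in homozygous mTEC. The desmosomal cadherins were mixed there, with Dsc1, Dsc2, Dsg1a, Dsg1b and Dsg1c lower, Dsc3 and Dsg4 higher and Dsg2 and Dsg3 not called. All 8 cTEC markers, all 9 thymocyte markers and 5 of 8 neural crest markers were also lower in heterozygous mTEC. In cTEC 3 of the 6 keratinocyte markers were higher in heterozygous mice and 0 lower. Apart from the neural crest marker Foxd3 in heterozygous and Dct in homozygous cTEC, none of these markers was at 0 throughout a dose group, and their part in the cadherin changes was not tested.

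A share of the dose calls ended when 1 library was left out. In cTEC these were 5 of the 24 calls. Pcdh20 lost its call without heterozygous cTEC 3 or homozygous cTEC 2 or 3, with a log2 fold change of 0.78 to 0.99. Without heterozygous cTEC 2 or 3 or homozygous cTEC 1, Dsg1a stood at -1.004 to -0.84 and was not called. Dsg1b lost its call without heterozygous cTEC 1 or homozygous cTEC 3, with a log2 fold change of -2.11 to -1.90. Without heterozygous cTEC 1 or homozygous cTEC 1 or 2 or 3, Cdh3 stood at 0.24 to 0.29 and was not called. Cdh13 lost its call without heterozygous cTEC 1 or 2 or homozygous cTEC 1 or 3, with a log2 fold change of -0.82 to -0.59. In mTEC, with 2 libraries a group, they were 10 including Cdh5. The library left alone is then assumed to vary like the other groups. Cdh20 lost its call without heterozygous mTEC 1 or 2 or homozygous mTEC 1, with a log2 fold change of -1.29 to -0.76. Without heterozygous mTEC 2 or homozygous mTEC 2, Pcdh9 stood at -1.22 to -1.09 and was not called. Cdh2 lost its call without heterozygous mTEC 1 or 2 or homozygous mTEC 1 or 2, with a log2 fold change of -0.53 to -0.49. Without heterozygous mTEC 1, Dsc2 stood at -0.20 and was not called. Dsg1c lost its call without heterozygous mTEC 1 or homozygous mTEC 1, with a log2 fold change of -0.75 to -0.66. Without heterozygous mTEC 1 or 2 or homozygous mTEC 1 or 2, Dsg1b stood at -0.33 to -0.23 and was not called. Cdh4 lost its call without heterozygous mTEC 1 or 2 or homozygous mTEC 2, with a log2 fold change of 0.27 to 0.46. Without heterozygous mTEC 1 or 2 or homozygous mTEC 2, Cdh3 stood at -0.34 to -0.06 and was not called. Pcdh19 lost its call without heterozygous mTEC 1 or 2 or homozygous mTEC 2, with a log2 fold change of 0.18 to 0.31. For the interaction there were 5. Dsg1b lost its call without heterozygous cTEC 1 or 3 or heterozygous mTEC 1 or homozygous cTEC 2 or 3, with a log2 fold change of 1.62 to 2.43. Without heterozygous cTEC 1 or 2 or heterozygous mTEC 1 or 2 or homozygous cTEC 1 or 2 or homozygous mTEC 1 or 2, Cdh22 stood at -1.59 to -0.99 and was not called. Cdh11 lost its call without heterozygous mTEC 1 or homozygous mTEC 2, with a log2 fold change of -0.36 to -0.29. Without heterozygous cTEC 2 or 3 or homozygous cTEC 1 or homozygous mTEC 1 or 2, Cdh5 stood at 2.98 to 3.53 and was not called. Cdh15 lost its call without heterozygous cTEC 1 or 3 or heterozygous mTEC 2 or homozygous cTEC 1 or 3 or homozygous mTEC 1 or 2, with a log2 fold change of -1.19 to -0.87.

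Other settings ended further dose calls. In cTEC, Cdh13 was at -0.71 (adjusted p = 0.0703) without normalization factors, and without a filter on low counts Pcdh20, Dsg1a, Cdh3 and Cdh13 had adjusted p of 0.052 or more and were not called. In mTEC, Cdh4 and Pcdh19 were not called with RLE factors, without factors, without the filter or in DESeq2, at 0.31 to 0.41 for Cdh4 and 0.14 to 0.25 for Pcdh19. Cdh5 was not called with RLE factors, without the filter or in DESeq2, and Cdh20 not without the filter or in DESeq2. DESeq2 also gave no call for Pcdh8 (adjusted p = 0.0971) or Cdh12 (adjusted p = 0.114), and Cdh2 had none without the filter (adjusted p = 0.0704). Of the interactions, that of Dsg1b was not called in any of these 4 settings, those of Cdh15 and Cdh22 not without the filter or in DESeq2, that of Dsg4 not in DESeq2 and that of Cdh5 not without the filter. Between the subsets, Cdh5 in homozygous mice was not called without the filter (adjusted p = 0.0513), nor Cdh7 in heterozygous mice in DESeq2 (adjusted p = 0.073).

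The third comparison asked which cadherin genes differ in cTEC 72 h after doxycycline when tetO-Cre can delete Foxn1. No cadherin gene was called. Of the 29 genes tested 0 were higher and 0 lower at an adjusted p under 0.05 in edgeR, beside 0.282% higher and 1.69% lower of all 15224 genes tested. At an unadjusted p under 0.05 there were 4, namely Pcdh7, Dsg3, Cdh4 and Cdh8, beside 19.3% of all genes. DESeq2 called Pcdh7 and Dsg3 higher, beside 1.80% of all genes to which it gave an adjusted p. Leaving out control cTEC 2 also gave calls for Pcdh7 and Dsg3, beside 1.22% of all genes higher in that fit. Over these 29 the median change was 0.19, against 0.01 over all genes. The other 15 genes did not pass the filter on low counts. They were Cdh6, Cdh9, Cdh10, Cdh12, Cdh15, Cdh16, Cdh18, Cdh19, Cdh20, Cdh22, Cdh26, Dsc1, Dsg1c, Pcdh11x and Pcdh12, with at most 23 counts in a library of this set.

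Pcdh7 had 30.4, 30.7, 23.7, 23.6 and 33.8 CPM in deleted cTEC, against 18.2, 22.5, 12.5, 12.2 and 7.11 CPM in control cTEC. It was the only gene among the 29 whose groups did not overlap, which held for 5.94% of all genes tested. Its log2 fold change was 0.95 ± 0.25 (adjusted p = 0.0835) in edgeR, and 1.14 with an adjusted p of 0.0226 without control cTEC 2. Dsg3 had 1.89, 2.78, 1.48, 2.57 and 2.94 CPM in deleted cTEC, against 0.914, 1.87, 0.586, 0.816 and 0.313 CPM in control cTEC, so that control cTEC 2 lay within the deleted range. Its log2 fold change was 1.36 ± 0.39 (adjusted p = 0.102), and 1.78 with an adjusted p of 0.0157 without that library. Cdh4 had 272, 253, 254, 254 and 313 CPM in deleted cTEC, against 404, 297, 358, 287 and 507 CPM in control cTEC, with -0.49 ± 0.16 (adjusted p = 0.148). Cdh8 had 3.78, 33.8, 8.43, 36.7 and 20.5 CPM in deleted cTEC, against 29.5, 44.7, 71.1, 40.5 and 99.9 CPM in control cTEC. That is a log2 fold change of -1.52 ± 0.55 (adjusted p = 0.175), and 3 deleted libraries lay below every control library. Beside these values, the cTEC dose comparison gave 1.05 for Pcdh7, 3.73 for Dsg3, -1.83 for Cdh4 and -5.58 for Cdh8, from other mice. These 4 were picked by their unadjusted p, and the signs of the remaining genes were mixed. Pcdh1 had equal signs, at 0.75 after deletion and 3.04 by dose. Pcdh15 (0.45 and -3.30) and Cdh2 (0.59 and -0.87) had opposite signs. None of these deletion values was called in the main test.

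Cdh1, Cdh3, Dsc3, Dsc2, Dsg2, Cdh2 and Cdh5 were not called after deletion. Cdh1 had 889.5, 939.8, 899, 889 and 884 CPM in deleted cTEC, against 784, 948, 676, 885 and 649 CPM in control cTEC, a log2 fold change of 0.18 ± 0.10 (adjusted p = 0.34). Cdh3 had 329, 432, 357, 392 and 335 CPM in deleted cTEC, against 304, 432, 292, 363 and 233 CPM in control cTEC, with 0.17 ± 0.14 (adjusted p = 0.53). Dsc3 had 863, 1109, 845, 944 and 815 CPM in deleted cTEC, against 774, 1102, 876, 931 and 767 CPM in control cTEC, with 0.02 ± 0.11 (adjusted p = 0.937). For Dsc2 the values were 496, 615, 436, 489 and 521 CPM in deleted cTEC, against 461, 594, 449, 439.7 and 439.6 CPM in control cTEC, a change of 0.08 ± 0.11 (adjusted p = 0.713). Dsg2 was at 285, 244, 260.0, 237 and 304 CPM in deleted cTEC, against 353, 259.8, 253, 206 and 310.3 CPM in control cTEC, with -0.08 ± 0.15 (adjusted p = 0.796). Cdh2 was at 23, 18.9, 8.04, 9.55 and 12.4 CPM in deleted cTEC, against 16.8, 12.4, 4.55, 9.11 and 4.47 CPM in control cTEC, with 0.59 ± 0.41 (adjusted p = 0.453). Cdh5 was at 4.11, 0.365, 3.16, 4.87 and 5.36 CPM in deleted cTEC, against 3.52, 0.547, 3.97, 2.18 and 5.05 CPM in control cTEC, with 0.19 ± 0.63 (adjusted p = 0.901), and the libraries numbered 2 were the lowest of each group. In the same libraries the endothelial markers summed to 6.07 CPM (deleted 2) and 5.74 CPM (control 2), the lowest of their groups. The group maxima were 27.6 CPM in deleted and 24.4 CPM in control cTEC. The mTEC markers (435 and 512 CPM) and thymocyte markers (58.1 and 60.3 CPM) were also lowest there. So were the macrophage and dendritic cell markers (6.34 and 5.52 CPM). The cTEC, fibroblast, neural crest and keratinocyte sums were not lowest in both. A link of these sums to Cdh5 was not tested.

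Cdh11 and Pcdh19 spread widely within both groups. Cdh11 had 106, 593, 178, 313 and 242 CPM in deleted cTEC, against 95.1, 523, 210.3, 257 and 70.2 CPM in control cTEC, so that library 2 was the highest of each group. Its log2 fold change was 0.30 ± 0.55 (adjusted p = 0.799), and -0.13 without deleted cTEC 2. Pcdh19 had 28.2, 101, 37, 43.2 and 39.6 CPM in deleted cTEC, against 23.9, 102, 26.2, 32.5 and 14 CPM in control cTEC, again with library 2 highest in each group, and a log2 fold change of 0.32 ± 0.50 (adjusted p = 0.763). Fibroblast markers summed to 1258 CPM in deleted cTEC 2 and 837 CPM in control cTEC 2, neither of them the highest of its group. Deleted cTEC spanned 871 to 1577 CPM in that sum and control cTEC 496 to 1004 CPM, none of the 10 markers was called or at 0 throughout a group, and its part in the values was not tested. The mTEC markers summed to 435 to 1728 CPM in deleted and 512 to 1678 CPM in control cTEC, and 0 of 9 were called. Thymocyte markers summed to 58.1 to 382 CPM in deleted and 60.3 to 478 CPM in control cTEC, with 0 of 8 called. In the mTEC and thymocyte sums library 2 was the lowest of each group.

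Of the 8 cTEC markers, which include Psmb11, 6 were lower after deletion. The median log2 fold change of the 8 was -2.19, so the absence of cadherin calls stood beside calls in these libraries. Among the remaining cadherin genes tested, log2 fold changes ran from -0.28 for Cdh13 to 0.82 for Pcdh10. Pcdh1 was at 0.75 ± 0.35 (adjusted p = 0.273), Pcdh17 at 0.66 ± 0.47 (adjusted p = 0.472), Pcdh15 at 0.45 ± 0.33 (adjusted p = 0.487) and Dsg1a at 0.21 ± 0.68 (adjusted p = 0.894). Dsg1a ranged from 5.02 to 40.0 CPM in deleted and from 3.44 to 39.8 CPM in control cTEC, while no transgenic cTEC library exceeded 1.31 CPM. Deletion and transgenic libraries come from different mouse lines, so these levels are set side by side without a test.

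**Figure D5:**
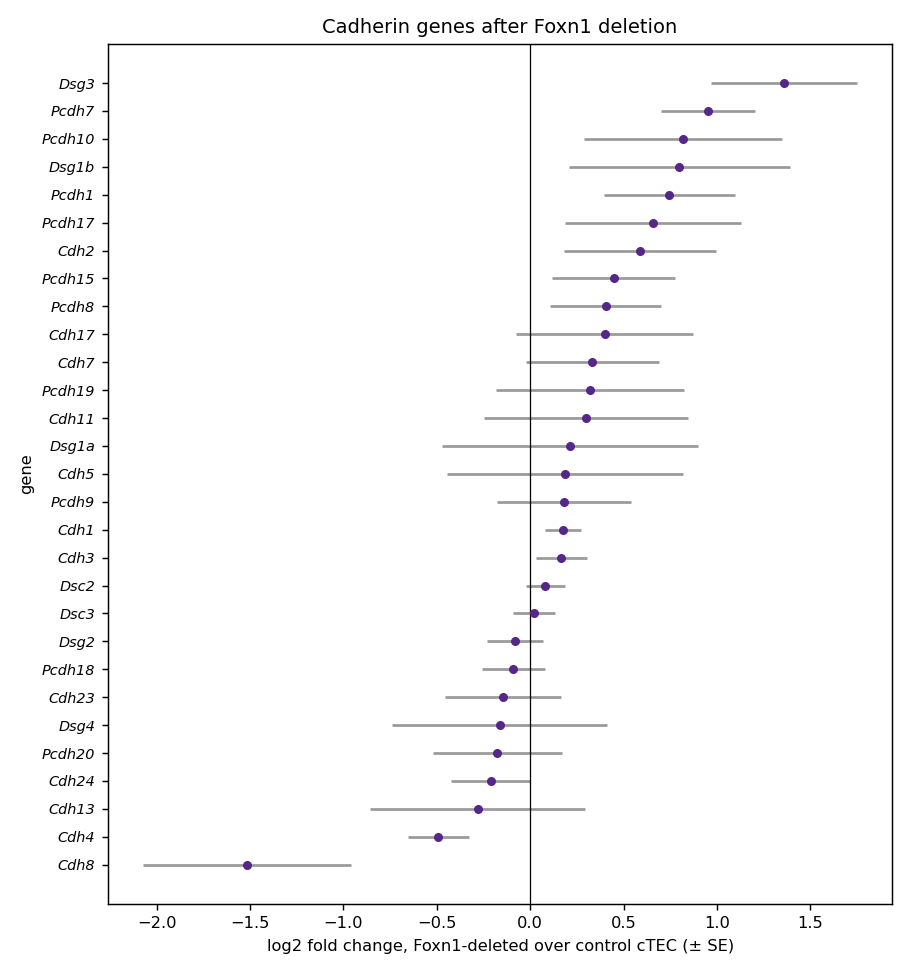
Log2 fold change of Foxn1-deleted over control cTEC with its standard error for the 29 cadherin genes that passed the filter, sorted by value. Dsg3 and Pcdh7 lie at the top and Cdh8 at the bottom, and no gene had an adjusted p under 0.05.

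The partners of cadherins inside the cell were looked at from a list of 27 catenins, plaque proteins, nectins and processing enzymes, of which 26 were in the table. In homozygous mice 8 were higher and 15 lower in mTEC, with a median log2 fold change of -0.38, beside 43.2% higher and 39.4% lower of all genes. In heterozygous mice 10 were higher and 13 lower, beside 40.4% and 31.6% of all genes. Pkp2 (plakophilin 2) was higher in mTEC by 6.35 ± 0.26 (adjusted p = 6.83e-11) in homozygous and 4.47 ± 0.21 (adjusted p = 3.63e-10) in heterozygous mice. Dsp (desmoplakin, which ties desmosomes to keratin) was lower at -2.45 ± 0.09 (adjusted p = 1.16e-11) in homozygous and -1.71 ± 0.08 (adjusted p = 5.27e-10) in heterozygous mice. Jup (plakoglobin) was lower at -1.06 ± 0.07 (adjusted p = 2.66e-08) in heterozygous mice, and Arvcf, a catenin of the p120 group, at -2.03 ± 0.10 (adjusted p = 2.25e-10) in homozygous mice. In the dose comparison of cTEC 9 were higher and 10 lower, beside 20.9% and 21.9% of all genes. Among them were Pkp1 (plakophilin 1) at 1.85 ± 0.16 (adjusted p = 6.35e-07), Pvrl4 (nectin-4) at 2.87 ± 0.26 (adjusted p = 1.06e-06), Evpl (envoplakin) at -1.17 ± 0.10 (adjusted p = 5.96e-07) and Dsp at -0.73 ± 0.07 (adjusted p = 1.88e-06). In mTEC 6 were higher and 5 lower, beside 28.9% and 30.8% of all genes. Furin was at 0.61 ± 0.08 (adjusted p = 2.90e-05) and Perp, a desmosomal membrane protein, at -0.64 ± 0.06 (adjusted p = 1.71e-06). After deletion 0 of 25 were higher and 2 lower, beside 0.282% higher and 1.69% lower of all genes. The 2 lower were Evpl at -1.31 ± 0.26 (adjusted p = 0.0332) and Ctnna3 (an α-catenin) at -2.85 ± 0.57 (adjusted p = 0.0352). Pkp1 was at 0.78 ± 0.19 (adjusted p = 0.0731).

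Of 17 further members of the cadherin superfamily in the table, 11 were higher and 6 lower in mTEC of homozygous mice, and 10 and 6 in heterozygous mice. Over all genes the shares were 43.2% and 39.4% in homozygous and 40.4% and 31.6% in heterozygous mice. Cdhr5, a protocadherin of intestinal brush borders, was higher by 7.72 ± 0.17 (adjusted p = 1.76e-13) in homozygous mice, and Clstn1 (calsyntenin 1) lower at -2.05 ± 0.07 (adjusted p = 7.17e-12). By dose, 7 were higher and 4 lower in heterozygous cTEC, beside 20.9% and 21.9% of all genes. In heterozygous mTEC they were 8 and 4, beside 28.9% and 30.8% of all genes. Dchs1, the giant cadherin that binds Fat4, was higher in both subsets, by 2.39 ± 0.11 (adjusted p = 2.58e-09) in cTEC and 2.42 ± 0.16 (adjusted p = 1.27e-07) in mTEC. After deletion 1 of 15 was lower, Cdhr3 at -1.31 ± 0.28 (adjusted p = 0.0405), beside 1.69% of all genes.

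Of 17 transcription factors known for switching cadherins, 7 were higher and 5 lower in heterozygous cTEC, beside 20.9% and 21.9% of all genes. Grhl3 and Klf4, both of epidermal differentiation, changed by 3.34 ± 0.28 (adjusted p = 5.77e-07) and 3.15 ± 0.30 (adjusted p = 2.12e-06), and Zeb1, a repressor of Cdh1 in other epithelia, by -1.45 ± 0.23 (adjusted p = 1.86e-04). In heterozygous mTEC 6 were higher and 4 lower, beside 28.9% and 30.8% of all genes. Between the subsets 10 were higher and 6 lower in mTEC of homozygous mice and 8 and 4 in heterozygous mice, with Grhl3 at 5.36 ± 0.26 (adjusted p = 2.83e-10) and Zeb2 at 2.88 ± 0.24 (adjusted p = 1.27e-07). Over all genes the shares were 43.2% and 39.4% in homozygous and 40.4% and 31.6% in heterozygous mice. After deletion 0 of 16 were called, beside 0.282% higher and 1.69% lower of all genes. These lists were compiled with earlier results of the same data known and are given as counts.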

How the data were processed

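The authors deposited 1 table of read counts per gene, whole numbers for 38720 genes in 20 RNA-seq libraries. Per the submitters' processing notes, the tools include Trimmomatic 0.32, TopHat2 2.0.10, Bowtie2 2.2.3 and featureCounts, and the builds mm10 and GRCm38. For the annotation, strand setting and parameters nothing is given in the sources used here. Per the labels' protocols the libraries were made from polyA RNA with TruSeq kits.

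The edgeR 4.0.16 package (R 4.3.3) served for all main tests (quasi-likelihood, TMM factors, filterByExpr with a minimum count of 10 and a minimum total of 15, two-sided, Benjamini-Hochberg over all genes tested, threshold 0.05). The deletion set (10 libraries) and the transgenic set (10 libraries, 4 groups in 1 fit) were fitted apart. Fold changes are given with standard errors, from the estimate and its F statistic. CPM use raw totals and fold changes use TMM factors, so small differences can change sign between them. Ratios with a group of 1 to 3 summed counts have exact 95% intervals, and a group at 0 is set to 3 counts; both cover counting error only. Code was tested on simulated data.

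Cadherin genes, families and lists were chosen with earlier results of these data known. Values per library are given for Cdh1, Cdh2, Cdh3, Cdh5, Cdh11, Dsg2, Dsg3, Dsc2 and Dsc3, for the 10 largest called changes with a mean of at least 1 CPM in a compared group, and for further genes to show the rest. Of each list up to 3 genes per direction of smallest adjusted p are named, with Dsp and Pkp1 followed across comparisons after their values were seen. Alternatives were RLE factors, no factors, no filter, DESeq2 1.42.0, a block on library number and leaving out each library. Positions and promoters are from RefSeq GRCm38.p6.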

Additional observations from a re-analysis of the deposited data

Results flagged for a closer look

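In 50 sets of 5 libraries (25 genes in deleted and control cTEC each), 5 libraries stood apart from the rest of their group by Dixon's criterion, and chance alone flags about 1 group in 20. Deleted cTEC 2 was the highest for Cdh1, at 940 CPM beside 899 CPM in the nearest library. It was also the highest for Pcdh19, at 101 CPM beside 43.2 CPM. Control cTEC 2 was the highest for Pcdh19, at 102 CPM beside 32.5 CPM, and for Dsc2, at 594 CPM beside 461 CPM. Control cTEC 5 was the highest for Cdh24, at 23.3 CPM beside 14.6 CPM. Of these 5 cases 4 fall on libraries numbered 2.

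The transgene dose effect differed between the subsets in the interaction test for 24 of the 40 genes tested. Over all genes tested, 25.2% had a positive and 17.2% a negative interaction past the threshold. The difference is given here as the log2 change in mTEC minus that in cTEC. It was positive for Pcdh15 (4.89), Cdh5 (3.48), Cdh8 (3.09), Pcdh9 (3.06), Cdh4 (2.27), Dsg1b (2.12), Cdh7 (2.05), Cdh13 (2.02), Pcdh18 (1.39), Dsg4 (0.82), Dsc3 (0.60) and Dsg2 (0.41). It was negative for Pcdh1 (-3.74), Dsg3 (-3.34), Pcdh20 (-3.06), Cdh23 (-2.37), Pcdh8 (-1.59), Cdh22 (-1.55), Pcdh17 (-1.55), Cdh15 (-1.10), Pcdh7 (-1.06), Cdh3 (-0.59), Pcdh19 (-0.51) and Cdh11 (-0.40). The values of Pcdh9, Dsg1b and Cdh5 rest on 3, 2 and 8 summed counts in heterozygous cTEC, and that of Cdh22 on 4 in homozygous cTEC. The calls of Cdh22, Cdh15, Dsg1b, Cdh5, Cdh11 and Dsg4 were not kept in every alternative setting.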

How the results depend on the processing

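For the deletion, the main edgeR test called 0 cadherin genes higher and 0 lower. DESeq2 called 2 higher (Dsg3 and Pcdh7), the replicate block 2 higher and 1 lower (Cdh4), and the fits without 1 library between 0 and 2 higher. Every other count of called genes stayed within 1.5 times. Over the fits without 1 library, the deletion log2 fold change lay between -0.0428 and 0.090 for Dsc3, -0.19 and 0.028 for Dsg2, -0.13 and 0.82 for Cdh11, and -0.0875 and 0.48 for Cdh5. In the same way Cdh5 in the mTEC dose comparison lay between -0.12 and 2.11, and Dsc2 in the interaction between -0.16 and 0.016. Without normalization factors Dsc3 in the cTEC dose comparison was 0.073. Cdh1 between homozygous subsets was 0.086 with RLE factors, 0.15 without factors and 0.081 in DESeq2. The cause was not tested. Under every alternative run, 18 of 24 calls were kept for the cTEC dose, 20 of 32 for the mTEC dose, 36 of 38 in each subset comparison and 18 of 24 for the interaction. Library numbers in the deletion set gave same-number correlations of 0.60, 0.75, 0.085, 0.35 and 0.45 between the groups' deviations, and 8 of 10 libraries correlated best with their own number, a hint from the data and not from the design, so the main test has no block. The mTEC groups hold 2 libraries each, which limits their error estimates, and genes under about 10 counts are limited by depth.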

Other observations

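Pcdh15 and Cdh23, the partners of the tip link in the inner ear, were both measured in thymic epithelium and did not move together by dose. Pcdh15 had a positive interaction of 4.89 and Cdh23 a negative one of -2.37. The pair was chosen after its values were seen, and Cdh23 overlaps other genes on the chromosome.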
